A study of Mus musculus with 6 samples.

Results

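The genes described here are the amino acid transporters of mouse synovial fibroblasts, chosen as every row of the deposited count table whose symbol belongs to the solute carrier families Slc1, Slc3, Slc7, Slc36, Slc38 or Slc43. This gave 42 of the 21033 genes in the table. Of these 42 genes, 22 had enough reads to be tested, 10 had a few reads, and 10 had no read in any library. The cells were primary synovial fibroblasts, the mesenchymal cells of the joint lining, taken from the ankles of hTNFtg mice, whose human TNF transgene leads to arthritis. Both groups carried it and had passed through 3 passages in culture. One group received compound 33 at 10 µM for 48 h, which the title of the series relates to the chaperone Hyou1, and the other received the vehicle DMSO for the same time, with 3 libraries per group. Sex, age and strain of the mice are not given in the labels, and the labels do not say whether the libraries of a group came from separate cultures or animals. The p-values thus weigh differences against library-to-library spread alone, and that spread may be technical.

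Carriers of the Slc7 family fall into a set of proteins that work alone and a set of light chains. The light chains reach the plasma membrane as disulfide-linked pairs with a heavy chain of the Slc3 family. Slc7a11 with the heavy chain Slc3a2 forms system xc-, which takes up cystine in exchange for glutamate and so feeds the synthesis of the antioxidant glutathione. Slc7a1, also known as CAT1, works alone and imports arginine, lysine and ornithine. Slc1 carriers move glutamate and aspartate or exchange small neutral amino acids, Slc38 carriers move glutamine and other neutral amino acids with sodium, Slc36 carriers move small amino acids with protons, and Slc43 carriers move large neutral amino acids or nucleobases. When amino acids run short, the transcription factor ATF4 raises transcription of many of these genes.

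Libraries held 1594052 to 2384850 reads with compound 33 and 1913730 to 2897207 reads with DMSO. Levels are given as reads per 1000000 reads of the scaled library (CPM). Because the library kit reads only the 3′ end of each transcript, a CPM value follows the number of transcripts without a correction for gene length. All 12 genes listed as fibroblast markers passed the filter on low counts, and their summed level was 12863 to 14820 CPM with compound 33 and 15327 to 16381 CPM with DMSO. Of their 12 estimates, 3 were positive and 9 negative. Pdgfrb was higher, and Thy1 and Lum were lower, in every compound 33 library than in every DMSO library. These make 25% of the list, against 13.4% of all tested genes without overlap. The 11 leukocyte markers, mostly Lyz2 and Cd14, summed to 56.0 to 108 CPM with compound 33 and 65.2 to 143 CPM with DMSO. Only these 2 passed the filter, and Ptprc had 6 reads in all. The endothelial list summed to 5.15 to 9.54 CPM with compound 33 and 2.44 to 3.71 CPM with DMSO, with no read of Pecam1. The chondrocyte list, mostly Comp, summed to 14.1 to 63.8 CPM with compound 33 and 21.2 to 29.9 CPM with DMSO, with no read of Acan. The muscle list, mostly Acta1, summed to 20.1 to 36.1 CPM with compound 33 and 24.7 to 40.3 CPM with DMSO. Dcstamp of osteoclasts had no read. The osteoclast list, mostly Ctsk, summed to 265.6 to 534 CPM with compound 33 and 138 to 279 CPM with DMSO. Acp5 averaged 6.69 CPM with compound 33 and 4.89 CPM with DMSO, with overlapping libraries, and Calcr had 1 read in all. The part of this list in the values below was not tested. The protease gene Ctsk alone averaged 363 ± 145 CPM with compound 33 and 217 ± 72.5 CPM with DMSO (SD, n = 3 each). In a bulk sample, fewer cells of a type, less RNA per cell and a change in the marker genes themselves cannot be told apart.

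No transporter passed the test over all genes, and the estimates were mostly positive. In edgeR's quasi-likelihood test, 0 of 22 tested transporters had a Benjamini-Hochberg adjusted p under 0.05, against a background of 0.0296% of all 10124 tested genes (0.00988% upward and 0.0198% downward). DESeq2 and limma-voom also passed 0 of the 22, where they passed 0.179% and 0.0198% of all genes. Under an unadjusted p of 0.05 lay 5 transporters, or 22.7%, all with positive estimates, where the background was 6.87% of all tested genes in either direction, 3.64% upward and 3.23% downward. These were Slc7a3, Slc1a5, Slc7a11, Slc7a1 and Slc38a2. DESeq2 placed 4 of these 5 under an unadjusted 0.05, without Slc7a1, where the background was 4.2% of 14851 genes. Those 14851 include genes under the filter on low counts, so this background is not matched to the 22 transporters. Limma-voom placed 6 transporters there, 5 with positive estimates and Slc36a4 with a negative one, against a background of 6.75%. The log2 fold change of compound 33 over DMSO was positive for 16 of the 22 transporters and negative for 6, with a median of 0.21, while 48.9% of all tested genes were positive and their median was -0.01. In 5 transporters every compound 33 library lay above every DMSO library, and in 1, Slc36a4, every compound 33 library lay below. Together these 6 make 27.3% of the transporters, against a background of 13.4% of all tested genes whose libraries did not overlap in either direction, 6.64% upward and 6.73% downward. These counts cover only the members that passed the filter on low counts. Slc7a3 and Slc7a7 reached the filter's level in all 3 compound 33 libraries, but in only 2 and 1 of their DMSO libraries. The DMSO libraries alone would not have kept either gene. The filter itself thus favoured an upward estimate most clearly for Slc7a7, and less so for Slc7a3.

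**Figure D1:**
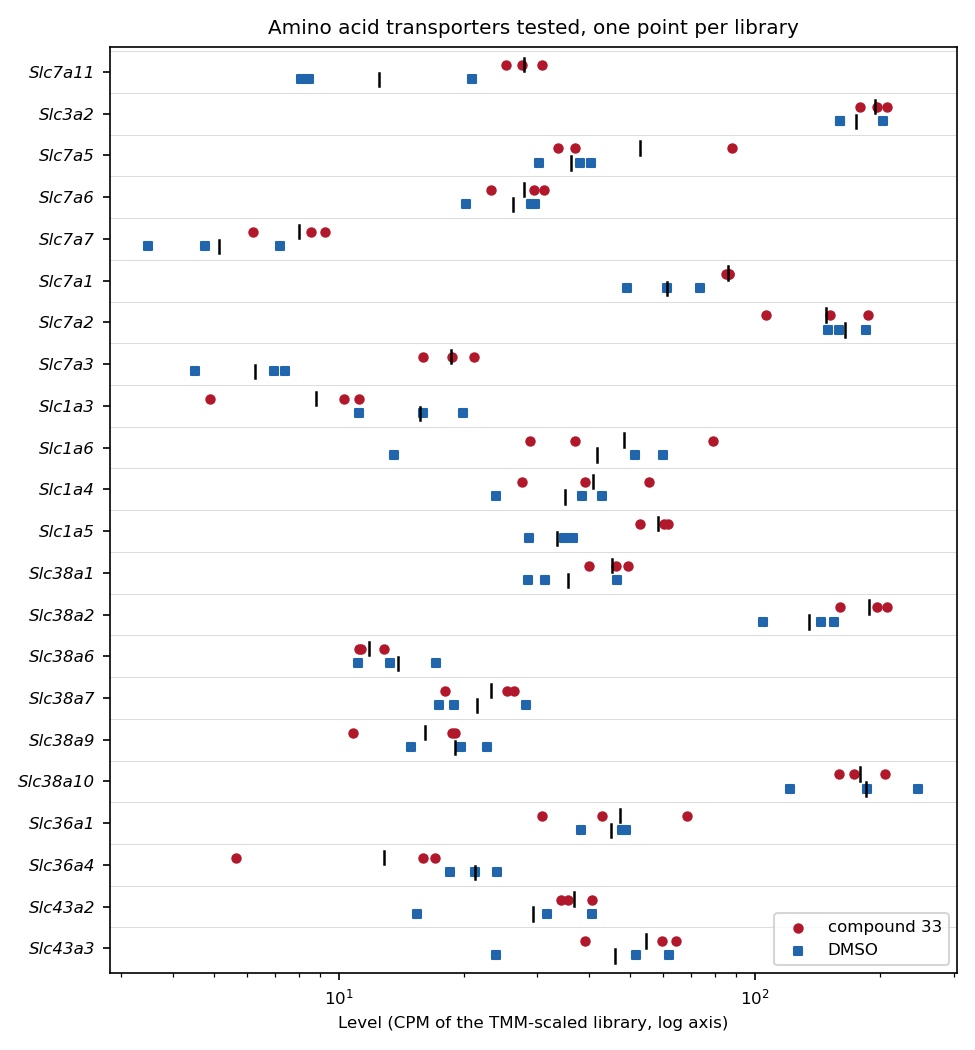
Level of each of the 22 tested transporters in every library, in CPM on a log axis, with compound 33 libraries as red circles above DMSO libraries as blue squares and black ticks for group means (3 libraries each). Slc3a2, Slc38a10, Slc38a2 and Slc7a2 form the most abundant group, and the libraries of Slc7a3, Slc1a5, Slc7a11, Slc7a1 and Slc38a2 are separated with compound 33 on the right.

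Slc7a11, the cystine light chain of system xc-, stood at 27.5, 30.7 and 25.2 CPM in compound 33 replicates 1 to 3, against 8.48, 8.12 and 20.9 CPM in DMSO replicates 1 to 3. The compound 33 libraries lay close together and above all DMSO libraries, and DMSO replicate 3 stood apart from its group and near the treated libraries. These levels rest on 45, 74 and 49 reads with compound 33 and on 16, 18 and 60 reads with DMSO. The group means were 27.8 ± 2.74 CPM with compound 33 and 12.5 ± 7.27 CPM with DMSO (SD, n = 3 each), and the fitted ratio was 2.17. On the log2 scale the fold change was 1.11 (SE 0.36, 95% interval 0.35 to 1.89, edgeR adjusted p = 0.555). Leaving out DMSO replicate 3 moved the estimate to 1.74, and leaving out DMSO replicate 2 moved it to 0.88, with adjusted p of 0.530 and 0.804 in edgeR. In the authors' deposited table the log2 fold change of Slc7a11 is 1.13 with an adjusted p of 0.532.

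Slc3a2, the heavy chain CD98 that Slc7a11 and most other light chains need, was the most abundant member over all 6 libraries and with compound 33, while Slc38a10 averaged higher with DMSO. It stood at 179, 197 and 208 CPM in compound 33 replicates 1 to 3, against 160.1, 203 and 160.1 CPM in DMSO replicates 1 to 3. The groups overlapped, because DMSO replicate 2 lay above compound 33 replicates 1 and 2. The log2 fold change was 0.16 (95% interval -0.28 to 0.59, edgeR adjusted p = 0.936). For every 100 reads of Slc3a2 there were 15.4, 15.6 and 12.1 reads of Slc7a11 with compound 33, and 5.30, 3.99 and 13.04 with DMSO. Here DMSO replicate 3 lay among the treated libraries, so the ratio overlapped between groups.

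The promoter window of Slc7a11 is shown because it differs from those of Slc7a1 in the letters TGATGNAA, a composite element read by ATF4 with C/EBP partners. RefSeq promoter windows on GRCm38.p6, from 250 bases before to 50 bases after each start, were searched on both strands, and 16 of the 22 tested transporters had such a window. Slc7a3, Slc1a5 and Slc7a5 were among those without a window and were not searched. The letters TGATGNAA occurred in 3.97% of all 32851 windows and in 4 of the 23 windows of these transporters (17.4%), which belong to 3 genes, namely Slc7a11, Slc1a4 and Slc7a7, which also holds a further match not shown. Overlapping windows of Slc7a7 hold the same TGATGCAA, so that site counts in more than 1 window. Slc7a11 holds a pair of TGATGNAA matches that face each other on opposite strands without overlap. Their upstream ends lie 66 and 47 bases before the start. Both stretches are on the minus strand of chromosome 3, at chr3:50443660-50443689 and chr3:50443641-50443670. The stretch of Slc1a4 is at chr11:20332698-20332727 and that of Slc7a7 at chr14:54417926-54417955, both on the minus strand. Capitals mark the letters found, read along the gene's strand from 5′ to 3′.
Slc7a11, first: ctcatgtggcTGATGCAAacctggagaatt
Slc7a11, second: cctggagaatTTGCATCAtcatgcagccca
Slc1a4: gcctcctgcgTTGCATCAtctccagcctgc
Slc7a7: acctagaagcTGATGCAAcagcttccccga

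The windows of Slc7a1 did not hold TGATGNAA, but sequence outside the windows was not searched and may hold it. They held TGACNNNGC, letters of the antioxidant response element that NRF2 reads, whose upstream end lies 11 bases before the start at chr5:148399896-148399925 on the minus strand, where capitals again mark the letters found.
Slc7a1: cggccgcgcgGCGCTGTCAttggtgccctg
The letters TGACNNNGC occurred in 12.4% of all windows and in 5 of the 23 windows of tested transporters (21.7%), which belong to Slc7a1, Slc36a1, Slc38a2 and Slc7a6. The letters GCGTG of the xenobiotic response element, which the aryl hydrocarbon receptor reads, occurred in 32.4% of all windows and in 8 of the 23 windows of tested transporters (34.8%), 1 of them of Slc7a1. Windows of Slc7a6 overlap and share matches of TGACNNNGC and GCGTG, so these sites count in more than 1 window. In Slc7a6 a match of GCGTG overlapped one of TGACNNNGC. A match of letters is a description of the sequence and does not show that a factor binds there.

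Slc7a1, the arginine and lysine importer CAT1, stood at 85.0, 86.6 and 86.5 CPM in compound 33 replicates 1 to 3, against 73.7, 49.2 and 61.3 CPM in DMSO replicates 1 to 3. All compound 33 libraries were nearly equal and lay above all DMSO libraries, among which replicate 1 came closest. The group means were 86.0 ± 0.919 CPM with compound 33 and 61.4 ± 12.3 CPM with DMSO (SD, n = 3 each). The log2 fold change of 0.49 had a standard error of 0.22 and a 95% interval of 0.01 to 0.96 (edgeR adjusted p = 0.720). In DESeq2 Slc7a1 was not under an unadjusted 0.05, where its unadjusted value was 0.0586. Without DMSO replicate 2 the estimate was 0.36, and leaving out DMSO replicate 1 gave 0.64. In the authors' deposited table the estimate for Slc7a1 is 0.49 with an adjusted p of 0.926.

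Slc7a3, or CAT3, a cationic carrier known mainly from neurons, had the highest log2 fold change and the lowest p of all 22 transporters, although it was among the least abundant. It stood at 15.9, 18.7 and 21.1 CPM in compound 33 replicates 1 to 3, against 7.42, 4.51 and 6.96 CPM in DMSO replicates 1 to 3. Every compound 33 library lay above every DMSO library with a wide gap, on 26, 45 and 41 reads with compound 33 and 14, 10 and 20 reads with DMSO. The log2 fold change was 1.55 (SE 0.34, 95% interval 0.82 to 2.30, edgeR adjusted p = 0.266), a fitted ratio of 2.94. Leaving out single libraries gave 1.37 (DMSO replicate 2) to 1.67 (DMSO replicate 1), and its lowest adjusted p over the alternatives run was 0.0833, in edgeR with no filter on low counts. In the authors' deposited table its log2 fold change is 1.56 with an adjusted p of 0.137.

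Slc7a2, or CAT2, was the most abundant cationic carrier, at 106, 151 and 187 CPM in compound 33 replicates 1 to 3, against 150.1, 159 and 185 CPM in DMSO replicates 1 to 3. Its groups overlapped almost fully, and its log2 fold change was -0.15 (95% interval -0.66 to 0.35, edgeR adjusted p = 0.940). As a share of the reads of all cationic carriers, Slc7a2 held 50.7% to 62.6% with compound 33 and 63.9% to 73.6% with DMSO. Slc7a1 held 29.0% to 40.5% with compound 33 and 22.8% to 31.4% with DMSO, and Slc7a3 held 7.07% to 7.58% with compound 33 and 2.09% to 3.16% with DMSO. The shares of Slc7a2 and Slc7a3 did not overlap between groups, while those of Slc7a1 did, and no test was run on these shares. The summed level of the cationic carriers was 256 ± 44.5 CPM with compound 33 and 236 ± 20.3 CPM with DMSO (SD, n = 3 each). Slc7a4 and Slc7a14, relatives of these carriers whose transport role is less settled, stayed under the filter with 40 reads and 1 read over all libraries.

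**Figure D2:**
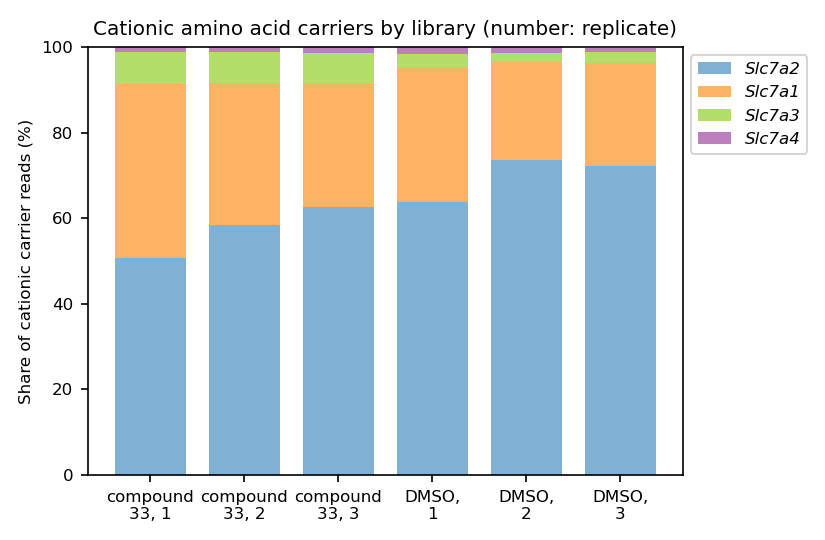
Share of reads of the cationic carriers held by Slc7a2, Slc7a1, Slc7a3 and Slc7a4 in each library, in percent, with compound 33 libraries left of DMSO libraries and replicate numbers under the bars. The green part, Slc7a3, is thicker in every compound 33 library than in every DMSO library, and the blue part, Slc7a2, is shorter.

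Other light chains showed no separation between groups. Slc7a5, or LAT1, which imports leucine and other large neutral amino acids, stood at 33.6, 36.9 and 88.0 CPM in compound 33 replicates 1 to 3, against 30.2, 37.9 and 40.4 CPM in DMSO replicates 1 to 3. Only compound 33 replicate 3 was high, and the log2 fold change of 0.54 (95% interval -0.20 to 1.28, edgeR adjusted p = 0.825) became -0.033 without it. Slc7a6, which exchanges cationic for neutral amino acids, averaged 27.9 ± 4.17 CPM with compound 33 and 26.2 ± 5.26 CPM with DMSO (SD, n = 3 each). Slc7a7, a light chain of the same exchange system, averaged 8.01 ± 1.59 CPM with compound 33 and 5.16 ± 1.90 CPM with DMSO, with overlapping libraries. Slc7a8, or LAT2, stayed under the filter with 50 reads in all, of which compound 33 replicate 3 held 18. Among all light chain reads, Slc7a11 held 27.1%, 28.5% and 16.3% in compound 33 replicates 1 to 3, against 12.7%, 9.52% and 21.2% in DMSO replicates 1 to 3. This share overlapped, since DMSO replicate 3 lay above compound 33 replicate 3.

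Slc1a5, or ASCT2, a sodium-dependent exchanger that brings in glutamine, had the third highest estimate. It stood at 60.5, 61.8 and 53.0 CPM in compound 33 replicates 1 to 3, against 28.6, 36.5 and 34.8 CPM in DMSO replicates 1 to 3. The groups were clearly apart, with all libraries of each group close together. The means were 58.4 ± 4.73 CPM with compound 33 and 33.3 ± 4.16 CPM with DMSO (SD, n = 3 each), and the fitted ratio was 1.75. The log2 fold change was 0.81 (SE 0.22, 95% interval 0.32 to 1.29, edgeR adjusted p = 0.458), and it stayed between 0.71 and 0.88 when any single library was left out. Slc1a4, or ASCT1, the related exchanger of alanine, serine and cysteine, stood at 27.5, 39.0 and 55.6 CPM with compound 33 and 23.9, 38.3 and 42.8 CPM with DMSO, and the groups overlapped.

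The glutamate and aspartate carriers of the Slc1 family were less abundant or scattered. Slc1a3, the glial carrier GLAST, stood at 4.89, 11.2 and 10.3 CPM in compound 33 replicates 1 to 3, against 15.9, 19.8 and 11.1 CPM in DMSO replicates 1 to 3. It had the lowest estimate of all 22 transporters, with a log2 fold change of -0.79 (95% interval -1.62 to 0.03, edgeR adjusted p = 0.729), and its groups touched at 11.2 CPM in compound 33 replicate 2 and 11.1 CPM in DMSO replicate 3. Slc1a6, known from cerebellar Purkinje cells as EAAT4, had the largest standard error of the 22, with libraries at 28.7, 36.9 and 79.3 CPM with compound 33 and 51.4, 13.5 and 60.2 CPM with DMSO. No exon of another annotated gene overlaps an exon of Slc1a6. Slc1a2 had 15 reads in all, Slc1a7 had 2, and Slc1a1 had none.

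Among the sodium-coupled neutral carriers, Slc38a2, or SNAT2, which takes up glutamine and alanine, stood at 196, 207 and 160.1 CPM in compound 33 replicates 1 to 3, against 104, 155 and 144 CPM in DMSO replicates 1 to 3. Every compound 33 library lay above every DMSO library, with compound 33 replicate 3 and DMSO replicate 2 only just apart. The log2 fold change was 0.48 (SE 0.22, 95% interval 0.00 to 0.96, edgeR adjusted p = 0.720). Slc38a1, or SNAT1, a glutamine carrier with the same sodium coupling, averaged 45.2 ± 4.95 CPM with compound 33 and 35.5 ± 9.80 CPM with DMSO, and DMSO replicate 1 lay among the treated libraries. Slc38a10, a less studied member, ranked below Slc3a2 over all 6 libraries, below Slc3a2 and Slc38a2 with compound 33, and above all others with DMSO, at 173, 205 and 159 CPM in compound 33 replicates 1 to 3, against 247, 121 and 186 CPM in DMSO replicates 1 to 3. DMSO replicates 2 and 1 were its lowest and highest libraries. Slc38a9, a lysosomal protein that senses arginine for the kinase complex mTORC1, averaged 16.1 ± 4.62 CPM with compound 33 and 19.0 ± 3.90 CPM with DMSO. Slc38a7, a lysosomal glutamine carrier, averaged 23.2 ± 4.52 CPM with compound 33 and 21.5 ± 5.78 CPM with DMSO, and Slc38a6 averaged 11.8 ± 0.914 CPM with compound 33 and 13.8 ± 3.05 CPM with DMSO. Apart from Slc38a2, all of these overlapped between groups.

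Of the proton-coupled carriers, Slc36a1 averaged 47.3 ± 19.3 CPM with compound 33 and 45.0 ± 5.97 CPM with DMSO. Slc36a4 stood at 15.9, 16.998 and 5.66 CPM in compound 33 replicates 1 to 3, against 21.2, 18.5 and 24.0 CPM in DMSO replicates 1 to 3. It was the only tested transporter whose compound 33 libraries all lay below the DMSO libraries, and its lowest library, compound 33 replicate 3, rests on 11 reads. Its log2 fold change was -0.72 (95% interval -1.52 to 0.07, edgeR adjusted p = 0.754), and -0.36 without compound 33 replicate 3. Of the Slc43 carriers, Slc43a2, which moves large neutral amino acids, averaged 36.8 ± 3.38 CPM with compound 33 and 29.2 ± 12.8 CPM with DMSO. Slc43a3, known as a carrier of purine nucleobases, stood at 59.9, 64.7 and 39.1 CPM in compound 33 replicates 1 to 3, against 23.9, 62.3 and 51.9 CPM in DMSO replicates 1 to 3. DMSO replicate 1 was the lowest library for both.

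**Figure D3:**
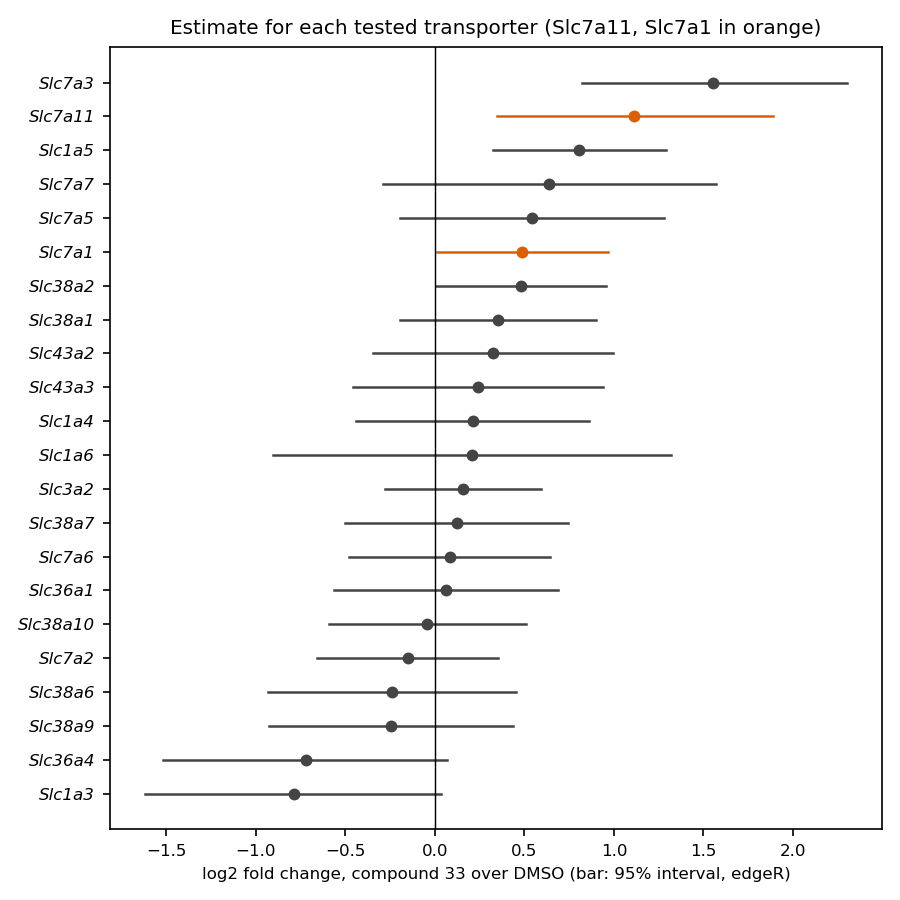
Log2 fold change of compound 33 over DMSO for each of the 22 tested transporters, with 95% intervals from edgeR, sorted by the estimate, and with Slc7a11 and Slc7a1 in orange. The intervals of 5 transporters lie above 0, those of Slc7a1 and Slc38a2 only just, and 17 include 0.

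Set against the other transporters, Slc7a11 ranked above Slc7a1. With both taken out, the other 20 tested members had a median log2 fold change of 0.18, and 14 of them were positive. In edgeR 3 of these 20, or 15%, lay under an unadjusted 0.05, against 6.87% of all tested genes. For 20% of them the libraries did not overlap, against 13.4% of all tested genes. Slc7a11 ranked second, with only Slc7a3 above it, and 6 of the other 20 estimates lay inside its 95% interval. Slc7a1 ranked sixth, with 4 of the other 20 above it, and 13 of the 20 lay inside its interval. Relative to the median log2 CPM of the other 20 in the same library, Slc7a11 lay at -0.19, -0.27 and -0.76 in compound 33 replicates 1 to 3, against -1.61, -2.0 and -0.67 in DMSO replicates 1 to 3. On that scale DMSO replicate 3 lay above compound 33 replicate 3, so the groups overlapped. Slc7a1 lay at 1.44, 1.23 and 1.02 with compound 33, against 1.51, 0.60 and 0.88 with DMSO, and DMSO replicate 1 was the highest of all. The mean difference between groups on this scale was 1.02 for Slc7a11 and 0.23 for Slc7a1, and it was not tested, since it is a score over the members. Slc7a11 was picked out because an earlier look at these data had already shown its estimate, so its rank carries no independent weight.

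**Figure D4:**
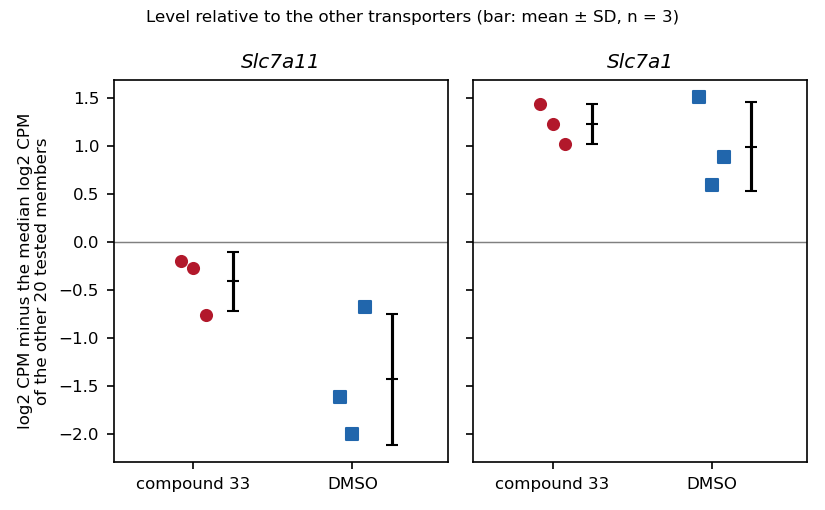
Log2 CPM of Slc7a11 (left) and Slc7a1 (right) minus the median log2 CPM of the other 20 tested transporters of the same library, with compound 33 left of DMSO and bars for mean ± SD (3 libraries each). For both genes at least 1 DMSO library lies within or above the compound 33 libraries.

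All 42 transporters together held 0.128% to 0.140% of the reads with compound 33 and 0.112% to 0.123% with DMSO. Their summed level was 1246, 1381 and 1423 CPM in compound 33 replicates 1 to 3, against 1141, 1146 and 1241 CPM in DMSO replicates 1 to 3. These sums did not overlap, although compound 33 replicate 1 and DMSO replicate 3 were only just apart, and no test was run on a sum over the members. Of the 20 members under the filter, 10 had reads, up to 50 over all libraries. Besides those named above these were Slc38a4 with 38 reads, Slc43a1 with 23, Slc36a2 with 7, Slc7a13 with 4 and Slc3a1 with 3. The other 10, which had no read, were Slc1a1, Slc36a3, Slc38a3, Slc38a5, Slc38a8, Slc38a11, Slc7a9, Slc7a10, Slc7a12 and Slc7a15. A count of 0 over a group allows a level of up to 0.501 CPM with compound 33 and 0.430 CPM with DMSO, from 3 reads over the group, a limit that covers counting error only. The members that work mainly in kidney and gut epithelium, the heavy chain Slc3a1 and its light chain Slc7a9, were thus at or near 0.

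**Figure D5:**
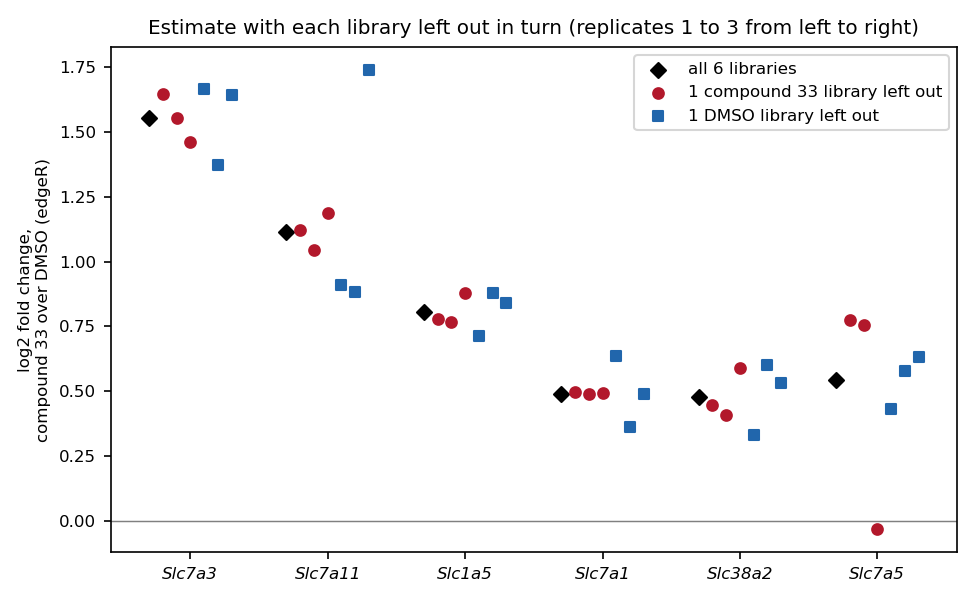
Log2 fold change of compound 33 over DMSO with all 6 libraries (black diamond) and with each library left out in turn, for the 5 transporters under an unadjusted p of 0.05 and for Slc7a5. With a library left out, Slc1a5 moves least, from 0.71 to 0.88. Slc7a3 runs from 1.37 to 1.67, Slc7a1 from 0.36 to 0.64 and Slc38a2 from 0.33 to 0.60. Slc7a11 reaches 1.74 without DMSO replicate 3, and Slc7a5 stands at -0.033 without compound 33 replicate 3.

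Genes that use, sense or otherwise carry amino acids were followed in 6 lists. Of the listed genes, 119 were in the count table and 93 were tested. In edgeR 0 of the 93 passed over all genes, and 10 lay under an unadjusted 0.05, or 10.8% against the background of 6.87%, 7 of them with positive and 3 with negative estimates. In 19 of the 93, or 20.4%, the libraries did not overlap between groups, against 13.4% of all tested genes. The list of glutathione and cystine use, downstream of system xc-, had 0 of 18 tested genes under an unadjusted 0.05 and a median log2 fold change of 0.08. Gclm, a subunit of the first enzyme of glutathione synthesis and named after its values were seen, stood at 81.9, 85.4 and 77.7 CPM with compound 33 and 73.7, 64.5 and 63.7 CPM with DMSO. Cth, which makes cysteine from cystathionine and was also named after its values were seen, stood at 44.0, 39.8 and 38.6 CPM with compound 33 and 21.2, 29.8 and 38.3 CPM with DMSO. For both genes the libraries did not overlap, though those of Cth nearly met at 38.6 and 38.3 CPM, and the estimates were 0.28 for Gclm and 0.44 for Cth (edgeR adjusted p = 0.873 and 0.805). They were the only genes of the list without overlap, 11.1% of its 18 tested genes, under the background of 13.4%. The most abundant genes of this list over all 6 libraries, the peroxidase Gpx1 and the heme oxygenase Hmox1, had estimates of -0.24 and -0.16 with overlapping libraries. Cd44, a surface receptor whose variant form stabilises system xc-, was the most abundant of the list with compound 33 and also overlapped, at 471 ± 83.6 CPM with compound 33 and 344 ± 94.3 CPM with DMSO (SD, n = 3 each), with an estimate of 0.45. It was named after its values were seen.

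The list of arginine, ornithine and polyamine genes, which follows the substrates of the cationic carriers, had a median of -0.13 over 12 tested genes. Under an unadjusted 0.05 lay 3 of the 12, where the background was 6.87% of all tested genes. In 33.3% of the 12 the libraries did not overlap, against 13.4% of all tested genes. Oat, the mitochondrial enzyme that turns ornithine into glutamate semialdehyde, stood at 226, 212 and 181 CPM in compound 33 replicates 1 to 3, against 310.2, 334 and 347 CPM in DMSO replicates 1 to 3. Its compound 33 libraries all lay far below the DMSO libraries, with a log2 fold change of -0.68 (SE 0.20, edgeR adjusted p = 0.493). Srm, the spermidine synthase, averaged 69.3 ± 5.52 CPM with compound 33 and 114 ± 24.1 CPM with DMSO (log2 fold change -0.71, edgeR adjusted p = 0.546). Ckb, a creatine kinase, averaged 83.2 ± 17.9 CPM with compound 33 and 56.6 ± 7.01 CPM with DMSO (log2 fold change 0.55, edgeR adjusted p = 0.712).

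Genes of amino acid sensing by mTORC1 and GCN2 had a median of -0.05 over 27 tested genes. Of these 27, 4 lay under an unadjusted 0.05, where the background was 6.87% of all tested genes. In 22.2% of the 27 the libraries did not overlap, against 13.4% of all tested genes. Under an unadjusted 0.05 lay Ddit3, which encodes the stress factor CHOP, Rragd and Lamtor2 of the lysosomal platform that recruits mTORC1, all with positive estimates, and Rheb, the GTPase that activates mTORC1, with a negative one. Ddit3 averaged 155 ± 31.5 CPM with compound 33 and 94.3 ± 23.6 CPM with DMSO, and its libraries did not overlap (log2 fold change 0.71, edgeR adjusted p = 0.599). Atf4, named after its values were seen, averaged 774 ± 132 CPM with compound 33 and 647 ± 160 CPM with DMSO. The libraries of Atf4 overlapped (log2 fold change 0.26, edgeR adjusted p = 0.898). Rragd stood at 11.6, 8.71 and 13.9 CPM with compound 33 and 5.30, 1.80 and 8.36 CPM with DMSO, a log2 fold change of 1.09 (edgeR adjusted p = 0.720). Its libraries did not overlap, though compound 33 replicate 2 and DMSO replicate 3 nearly met. With DMSO replicate 2 left out the estimate was 0.70, and leaving out DMSO replicate 3 gave 1.69. Rheb averaged 61.8 ± 12.6 CPM with compound 33 and 90.3 ± 8.98 CPM with DMSO (log2 fold change -0.55, edgeR adjusted p = 0.697). Lamtor2 averaged 43.1 ± 8.73 CPM with compound 33 and 27.9 ± 5.70 CPM with DMSO (log2 fold change 0.62, edgeR adjusted p = 0.697).

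Amino acid carriers of other families had a median of 0.01 over 13 tested genes, and 3 of them lay under an unadjusted 0.05, all with positive estimates. The background was 6.87% of all tested genes in either direction and 3.64% upward. In 23.1% of the 13 the libraries did not overlap, against 13.4% of all tested genes. Slc6a9, the glycine carrier GlyT1, stood at 46.5, 42.3 and 52.0 CPM in compound 33 replicates 1 to 3, against 20.7, 27.97 and 25.8 CPM in DMSO replicates 1 to 3. Its groups were well apart, and its log2 fold change of 0.91 (SE 0.24, edgeR adjusted p = 0.401) is of the size of those of Slc1a5 and Slc7a11. Slc6a6, the taurine carrier, averaged 96.2 ± 30.8 CPM with compound 33 and 58.5 ± 24.0 CPM with DMSO, with overlapping libraries. Slc15a4, a lysosomal carrier of histidine and small peptides, averaged 76.3 ± 12.1 CPM with compound 33 and 51.0 ± 11.8 CPM with DMSO. The lists of glutamine, glutamate, asparagine and serine use (14 tested genes) and of branched-chain amino acid use (9 tested genes) had 0 genes under an unadjusted 0.05 and medians of 0.06 and 0.07. Their most abundant genes over all 6 libraries had estimates of 0.22 for Glud1, glutamate dehydrogenase, 0.08 for Psat1 of serine synthesis, -0.29 for Bcat1, which starts branched-chain breakdown, and -0.12 for Bckdk, the kinase that restrains it.

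On mm10, Slc1a5 is a plus-strand gene of chromosome 7 (16781340 to 16798274). The minus-strand genes are Slc7a11 of chromosome 3 (49892526 to 50443614), Slc7a1 of chromosome 5 (148327410 to 148399904), Slc7a3 of chromosome X (101079210 to 101086020), Slc38a2 of chromosome 15 (96687392 to 96699730) and Slc3a2 of chromosome 19 (8706882 to 8723369). Each of the 42 members matched a single protein-coding gene of the GENCODE M21 annotation. Exons of Slc7a2, Slc7a7, Slc38a9, Slc38a10 and Slc43a2 among the tested members overlap a gene on the opposite strand, and reads of these pairs cannot be told apart, since no source used here states whether counting used strand. No exon of a member overlaps an exon of another gene on its own strand.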

How the data were processed

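RNA of 3 compound 33 and 3 DMSO samples was sequenced as 3′ mRNA libraries (QuantSeq, Ion Proton), per the labels' protocols. The tools, per the submitters' processing notes, are HISAT2 2.2.1, featureCounts 2.0.3, FastQC 0.11.9 and DESeq2, with mm10 as the build. Annotation and strand setting were not given in the sources used here. Raw read counts per gene symbol were deposited by the authors, and all 6 columns were used. Their deposited comparison gives a mean normalized count (a signal), log2 fold changes with standard errors, a Wald score, and p-values.

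The tests used edgeR 4.0.16, limma 3.58.1 and DESeq2 1.42.0 under R 4.3.3. Genes were kept by filterByExpr with a minimum count of 10 (10124 genes), scaled by TMM and tested with the robust quasi-likelihood F test, two-sided, with Benjamini-Hochberg adjustment over all tested genes and a threshold of 0.05. The standard error is the unshrunk log2 fold change over the square root of F. Chi-square per degree of freedom between same-group libraries was 4.56 to 18.9, above counting noise, so no pair was treated as a repeat of 1 library; this does not show that they came from separate cultures. The labels give no batch. Members and lists were chosen with earlier results of these data known. Named were transporters that were abundant, separated between groups or under an unadjusted 0.05. Of the list genes, those under an unadjusted 0.05 or else the 2 most abundant over all libraries were named. Gclm, Cth, Cd44 and Atf4 were added after their values were seen. Castor1, Castor2 and Slc66a1, all listed, were not among the symbols of the count table and are not analysed here.

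Alternatives were 3 other scalings, no or a stricter filter (minimum 20), DESeq2, limma-voom, no robust estimation, the replicate block and each library left out.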

Additional observations from a re-analysis of the deposited data

How the results depend on the processing

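No transporter passed over all genes under any of the 15 alternatives run, and Slc7a11 and Slc7a1 kept positive estimates in all of them. The number of genes passing in the whole table was 21 without a low-count filter, 18 in DESeq2 and 7 with the replicate block, against 3 in the edgeR test, and 1 to 7 with a library left out (1 without DMSO replicate 3 or compound 33 replicate 1, and 7 without DMSO replicate 1). The median log2 fold change of the tested transporters ran from 0.16 to 0.30 with a library left out. Replicate numbers were not taken as pairs: same-numbered libraries had deviations from their group means correlated at -0.03, 0.21 and 0.08 across genes, and not every library correlated best with its own number. With the replicate block the estimates were 1.22 for Slc7a11 and 0.51 for Slc7a1 (edgeR adjusted p = 0.337 and 0.776), and the block changed no call of a transporter.

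Some estimates changed sign, that of Slc7a5 (0.54 with all libraries) among them, and the cause was not tested. With a library left out they ran from -0.069 to 0.42 for Slc1a4, -0.34 to 0.59 for Slc1a6, -0.30 to 0.31 for Slc36a1, -0.26 to 0.22 for Slc38a10, -0.016 to 0.35 for Slc38a7, -0.059 to 0.51 for Slc43a3, -0.35 to 0.035 for Slc7a2, -0.033 to 0.77 for Slc7a5, -0.066 to 0.20 for Slc7a6, -0.30 to 0.033 for Bckdk, -0.51 to 0.15 for Gpx1, -0.46 to 0.43 for Hmox1 and -0.072 to 0.31 for Psat1. In limma-voom the estimate was -0.015 for Slc36a1, 0.0094 for Slc38a10 and 0.0036 for Hmox1, and with the replicate block it was 0.0026 for Slc38a10 and 0.0054 for Hmox1. Depth limits the rarest tested members most, such as Slc7a7 with 9 to 18 reads a library.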
